A study of Mus musculus with 54 samples.

Results

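In the mouse line labelled TKO, primordial germ cell-like cells (PGCLC) were compared with the epiblast-like cells (EpiLC) they are made from. The 2 PGCLC libraries of that line, from day 2 of PGCLC culture, were set against its 2 EpiLC libraries, which are 4 of the 54 messenger RNA libraries of the study. TKO is not spelled out in the labels. The series covers cells with knockouts of Ovol family genes, but the sources used here state neither which part of each gene was changed nor whether TKO is 1 clone. For comparison, the same step was read in WT cells and in the line labelled Ovol2KO, each with 2 PGCLC and 2 EpiLC libraries. All lines carry the strain label C57BL/6 X 129/SvJ. Separate cultures for the libraries of 1 group are not stated in the labels. The p-values therefore measure only the spread between libraries of the same group, shared over all 54 libraries, and that spread may be technical.

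EpiLC are made from embryonic stem cells (ESC) and stand for the formative epiblast, the state between naive pluripotency and gastrulation. PGCLC are induced from EpiLC with BMP4 and further cytokines, and this signal switches on both a germ cell programme led by Prdm1, Prdm14 and Tfap2c and, at first, a mesodermal programme led by T. OVOL proteins are zinc finger repressors known for keeping epithelial cells from turning mesenchymal. The transition therefore brings together genes of pluripotency, germ cells, mesoderm, axial patterning and cell adhesion.

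The PGCLC libraries of TKO held 2.94 and 12.34 M reads and its EpiLC libraries 23.45 and 4.59 M, recovered from the deposited TPM, a length-scaled share of each library's transcripts, within a range of 2.16 to 26.73 M over the series. Ovol2, which codes for one of these repressors, was at 1.52 and 0.835 TPM in TKO PGCLC and at 9.21 and 11.2 TPM in TKO EpiLC, against 11.3 and 6.98 TPM in WT PGCLC and 9.51 and 12.7 TPM in WT EpiLC. In the line labelled Ovol2KO it reached 33.7 and 34.6 TPM in EpiLC. Ovol3 was at 5.76 and 5.53 TPM in TKO PGCLC and at 13 and 12.2 TPM in TKO EpiLC, and Ovol1 was at 0.504 TPM or less in TKO PGCLC and below 1 TPM in TKO EpiLC. TPM of whole genes do not show the loss of part of a gene, so these levels check neither the TKO nor the Ovol2KO label.

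In TKO, 3538 of 14416 tested genes were called between PGCLC and EpiLC, a share of 24.5%. Of these, 2087 genes rose (14.5%) and 1451 fell (10.1%). A gene was called where the limma test on log2(TPM + 1) gave a Benjamini-Hochberg (BH) adjusted p under 0.05 and the log2 difference was at least 1 in size. The median log2 difference over all tested genes was 0.14, and with quantile scaling, which brings that median to -0.01, 1626 genes rose and 1756 fell, so the share of rises was 48.1% in place of 59.0%. The smallest two-sided p of an exact permutation test of 2 libraries against 2 is 0.33, and the test therefore rests on the spread shared over all 54 libraries. Among the largest rises were those of Sprr2a3, Hand1, Cdx2 and T, and among the largest falls those of Utf1, Fgf5, Otx2 and Pim2.

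WT cells had 3043 genes called over the same step (21.1%), 1944 higher (13.5%) and 1099 lower (7.62%) in PGCLC, or 1383 and 1518 with quantile scaling. The TKO and WT transitions share no library. Of the genes that rose in TKO, 1298 also rose in WT (62.2% of the TKO list and 66.8% of the WT list), and of those that fell in TKO, 801 also fell in WT (55.2% and 72.9%). Genes called in opposite directions numbered 10 among the rises in TKO and 12 among the falls. The difference between the transitions, TKO minus WT, was tested as an interaction in the same fit. It was called for 1357 genes (9.41%), with 611 positive (4.24%) and 746 negative (5.17%). With limma-voom on recovered reads the split was 507 to 968, a positive share of 34.4% in place of 45.0%. For a gene near 0 in the EpiLC of both lines, this difference rests on the PGCLC levels and depends on the pseudocount. Among 133 named genes with a called difference, 84 kept the call in every alternative, 37 lost it or turned with limma-voom and 26 lost it with a pseudocount of 0.1 TPM. Such losses are named where the difference of a single gene is given.

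**Figure D1:**
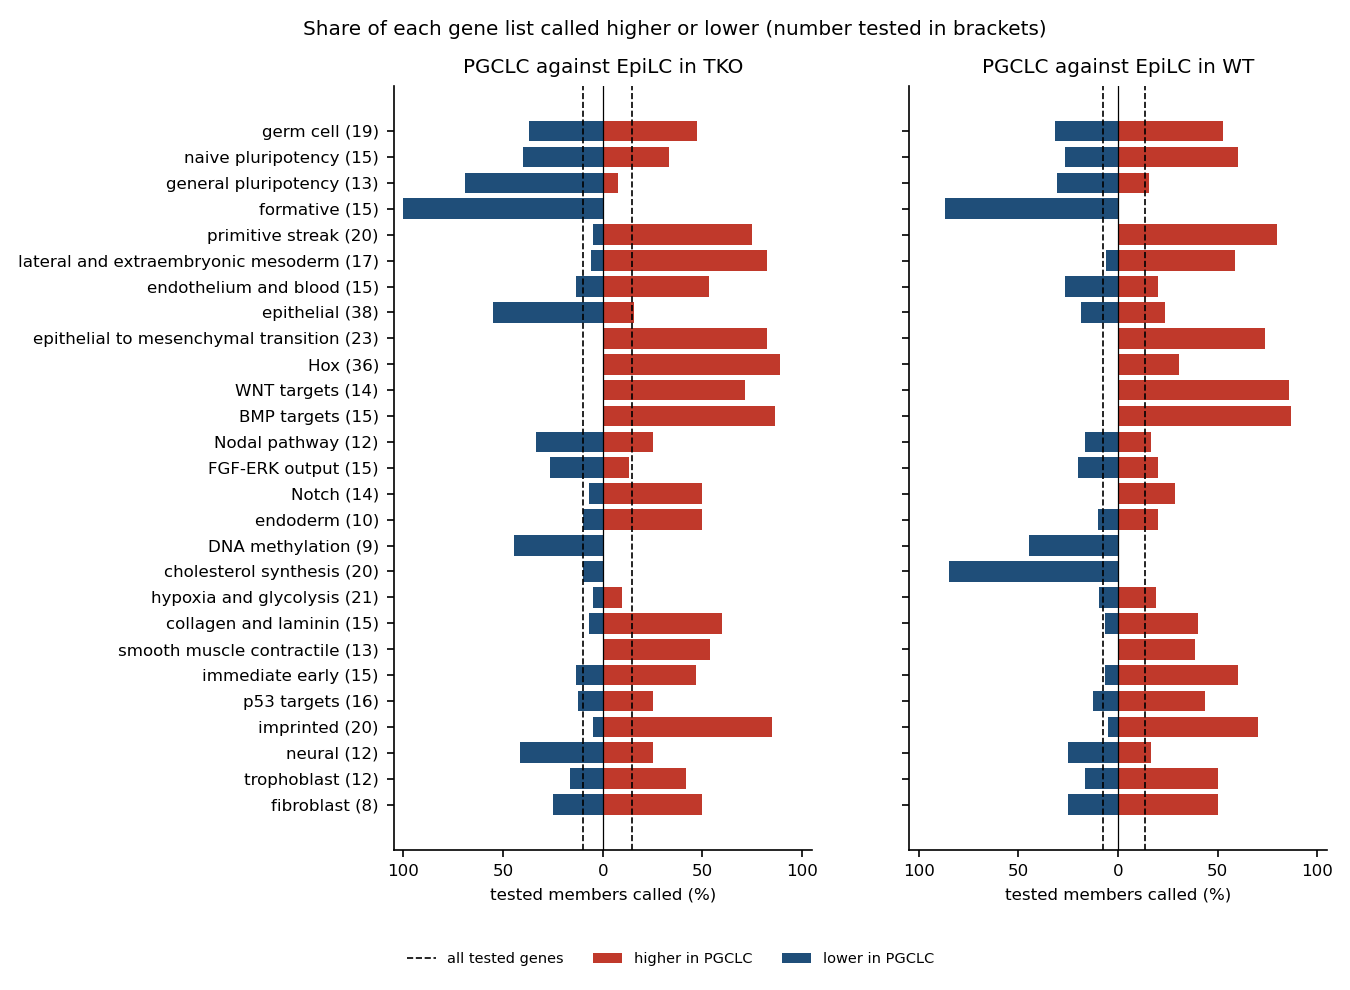
Share of the tested members of each gene list called higher (right) or lower (left) in PGCLC than in EpiLC, in percent, for TKO in the left panel and WT in the right panel. Dashed lines mark the share over all tested genes (14.5% higher and 10.1% lower in TKO). All 15 formative genes fell in TKO, and 32 of 36 Hox genes rose there, against 11 in WT.

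Genes of the formative state fell throughout. All 15 formative genes tested were called lower in TKO PGCLC than in EpiLC, with a median log2 difference of -4.06. In WT 13 of the 15 fell, with a median of -2.61. Fgf5, a growth factor of the post-implantation epiblast, was at 0 TPM in both TKO PGCLC libraries and at 104 and 110 TPM in EpiLC, which is at least 607-fold lower at a floor of 3 reads over the group. In WT PGCLC it was still at 6.73 and 11.7 TPM, against 79.9 and 75.2 TPM in EpiLC, and the difference of the transitions was -3.77 ± 0.38 (log2, SE). Otx2, a transcription factor that holds the epiblast state and restrains germ cell entry, was at 0 and 0.137 TPM in TKO PGCLC and at 88 and 114 TPM in EpiLC, against 6.29 and 9.87 TPM in WT PGCLC and 79.7 and 90.9 TPM in WT EpiLC. The 2 lines overlapped in EpiLC for Otx2 and stood apart in PGCLC.

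Not every formative gene differed between the lines. Pou3f1, a POU factor of the primed epiblast, was at 10.3 and 10.9 TPM in TKO PGCLC and at 291 and 320 TPM in EpiLC, and its transitions differed by 0.18 ± 0.28 (limma BH-adjusted p 0.707). The de novo DNA methyltransferase Dnmt3b was at 83.4 and 73 TPM in TKO PGCLC and at 1260 and 1380 TPM in EpiLC, and Dnmt3a at 28.6 and 29.2 TPM in PGCLC and at 278 and 306 TPM in EpiLC. Dnmt3a fell by 3.29 on the log2 scale in TKO and fell by 3.24 in WT. Pim2, a kinase gene, was at 15.9 and 13.9 TPM in TKO PGCLC and at 950 and 1050 TPM in EpiLC, and the transitions differed by -3.78 ± 0.37. Foxd3, a forkhead factor of the epiblast, fell by 5.22 in TKO. Of the 15 formative genes, 5 had a called negative and 1 a called positive difference between the lines.

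General pluripotency genes fell further in TKO than in WT. Of 13 tested, 9 fell and 1 rose in TKO (median -2.11), whereas 4 fell and 2 rose in WT (median 0.03). The difference between the transitions was called negative for 10 of the 13, with a median of -2.03, against 5.17% negative over all genes, and limma-voom gave the same count. Pou5f1, which codes for OCT4, was at 439 and 424 TPM in TKO PGCLC and at 1900 and 1940 TPM in EpiLC, and fell by 2.15 ± 0.07 on the log2 scale (limma BH-adjusted p 3.72e-24). In WT it was at 1440 and 1640 TPM in PGCLC and at 1840 and 1840 TPM in EpiLC. Sox2, the partner of OCT4, was at 17.7 and 14.4 TPM in TKO PGCLC and at 71.4 and 72.4 TPM in EpiLC, against 84.4 and 89.1 TPM in WT PGCLC and 67.9 and 67.8 TPM in WT EpiLC. TKO PGCLC were the lowest of the 4 groups for both genes, with no overlap.

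Nanog, a homeobox gene of naive cells and germ cells, was at 25.9 and 27.1 TPM in TKO PGCLC and at 44.1 and 39.2 TPM in EpiLC. Its log2 difference of -0.63 ± 0.17 was short of the size needed for a call. WT PGCLC had 172 and 198 TPM, against 29.9 and 23.8 TPM in WT EpiLC, and the transitions differed by -3.38 ± 0.24. Utf1, a chromatin factor of pluripotent cells, was at 6.01 and 4.73 TPM in TKO PGCLC and at 1300 and 1350 TPM in EpiLC, and fell by 7.71 ± 0.19, more than any other tested gene in these libraries. WT PGCLC kept 97.7 and 116 TPM of it. Dppa4, Dppa2, Dppa5a and L1td1, further markers of pluripotent cells, had log2 differences of -5.20, -4.44, -3.78 and -3.55 in TKO, and each fell further than in WT. Tdgf1, the NODAL co-receptor, was at 248 and 238 TPM in TKO PGCLC and at 565 and 615 TPM in EpiLC, against 803 and 869 TPM in WT PGCLC and 505 and 474 TPM in WT EpiLC.

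Among 15 naive pluripotency genes, 5 rose and 6 fell in TKO, whereas 9 rose and 4 fell in WT. The difference of the transitions was called negative for 10 and positive for 1, with a median of -1.35. Esrrb, an orphan nuclear receptor of naive cells, was at 3.02 and 3.25 TPM in TKO PGCLC and at 14.4 and 13.6 TPM in EpiLC, against 30.9 and 29.2 TPM in WT PGCLC and 10.7 and 11.3 TPM in WT EpiLC. It fell in TKO and rose in WT. Zfp42 (REX1) fell by 3.03 in TKO and fell by 1.07 in WT, and Nr0b1 fell by 3.64 in TKO. Tbx3, a T-box gene shared by naive cells and mesoderm, went the other way in TKO, at 155 and 154 TPM in PGCLC and 0.183 and 0 TPM in EpiLC. The one naive gene with a positive difference was Pecam1, an adhesion molecule that endothelium also carries, at 10.2 and 11.5 TPM in TKO PGCLC and 5.75 and 5.73 TPM in EpiLC, against 1.9 and 2.36 TPM in WT PGCLC and 12.6 and 15.6 TPM in WT EpiLC.

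**Figure D2:**
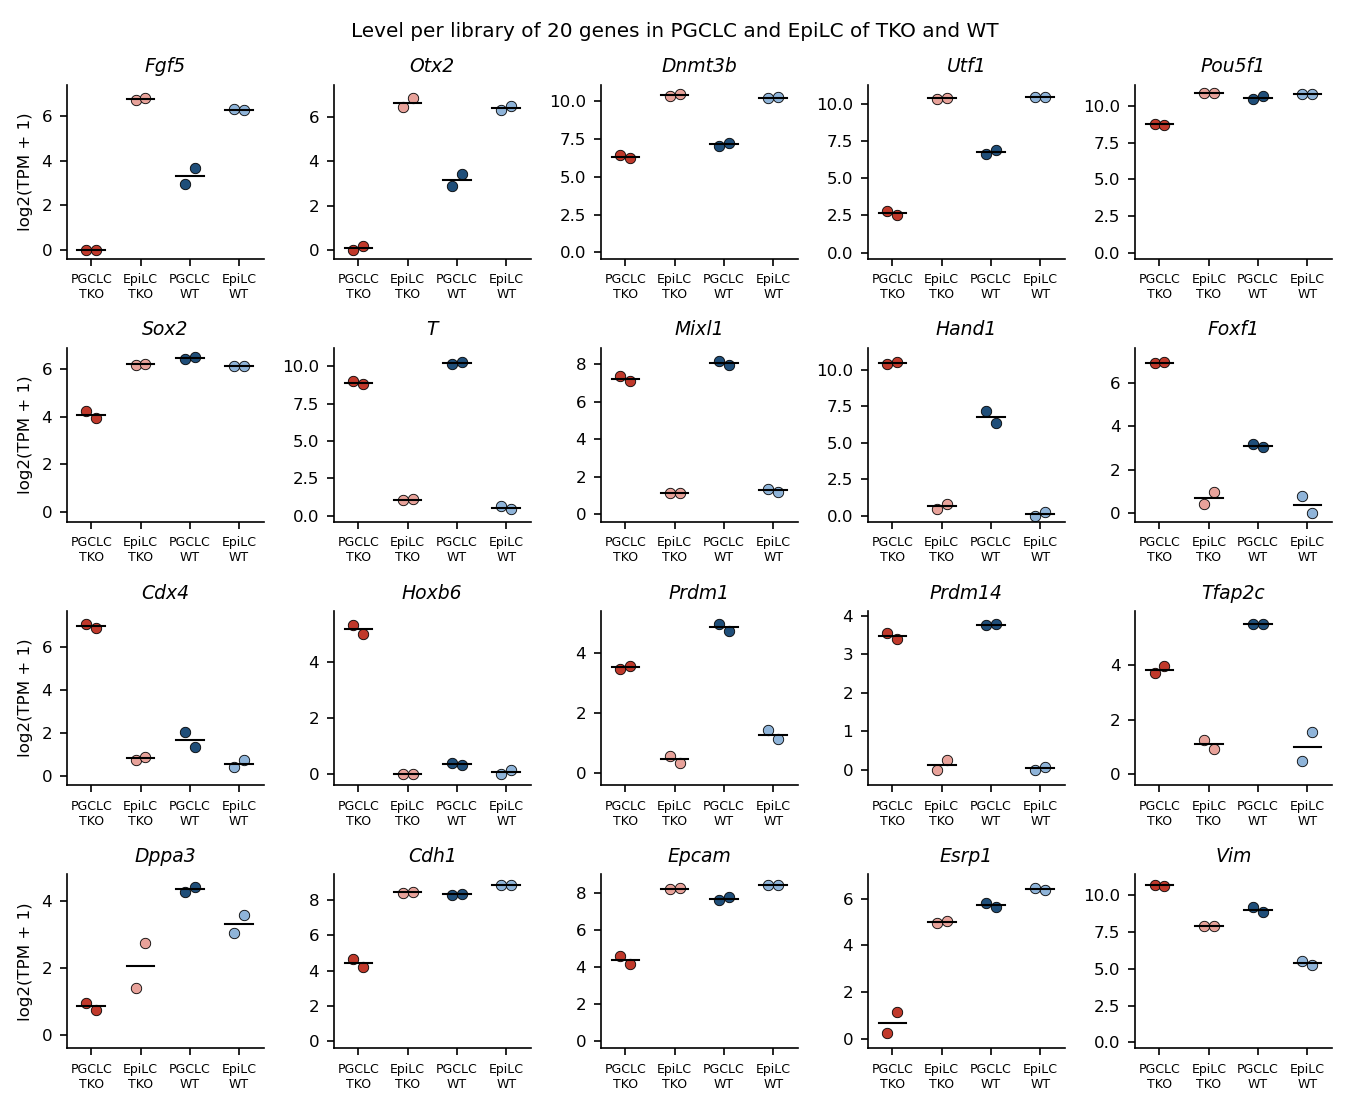
Level of 20 genes in each library, as log2(TPM + 1), for PGCLC and EpiLC of TKO and then of WT, with 2 points per group and a bar at their mean. Fgf5 and Otx2 lay at or near 0 in TKO PGCLC only, Pou5f1, Sox2, Cdh1 and Epcam were lowest there, and Hand1, Foxf1, Cdx4 and Hoxb6 were highest there.

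Germ cell regulators rose in TKO, and of Prdm1, Prdm14 and Tfap2c only Tfap2c had a called difference from WT. Of 19 germ cell genes tested, 9 rose and 7 fell in TKO (median 0.71), and 10 rose and 6 fell in WT (median 1.03). The difference of the transitions was called positive for 3 and negative for 4, or for 3 and 3 with limma-voom. Over all tested genes 4.24% were positive and 5.17% negative. Prdm1, the repressor of somatic genes known as BLIMP1, was at 10.1 and 10.9 TPM in TKO PGCLC and at 0.492 and 0.268 TPM in EpiLC, a rise of 3.07 ± 0.17, against 30.3 and 25.9 TPM in WT PGCLC and 1.68 and 1.2 TPM in WT EpiLC. Its transitions differed by -0.51 ± 0.25 (limma BH-adjusted p 0.144). Prdm14, which resets pluripotency and DNA methylation in germ cells, was at 10.8 and 9.45 TPM in TKO PGCLC and at 0 and 0.18 TPM in EpiLC, against 12.5 and 12.7 TPM in WT PGCLC, and its difference of -0.38 ± 0.21 was also not called. Tfap2c, which codes for AP2 gamma, was at 11.9 and 14.4 TPM in TKO PGCLC and at 1.38 and 0.91 TPM in EpiLC, against 44.1 and 43.7 TPM in WT PGCLC and 0.38 and 1.92 TPM in WT EpiLC. It rose in both lines, and the difference of the transitions, -1.76 ± 0.32, kept its call in every alternative.

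Other germ cell genes went different ways in TKO. The 19 listed summed to 2830 to 3070 TPM in TKO PGCLC, against 1480 to 1510 TPM in WT PGCLC. This sum follows abundant members such as Ifitm1 and Alpl, and it was 2960 to 3160 TPM in TKO ESC. Prdm1, Tfap2c, Dppa3 and Tdrd5 were lower in TKO PGCLC than in WT PGCLC, while Alpl was higher. Dnd1, named after its values were seen, rose by 1.34 in TKO and by 1.32 in WT. Dppa3 (STELLA), a maternal factor that marks early germ cells, was at 0.947 and 0.671 TPM in TKO PGCLC and at 1.62 and 5.69 TPM in EpiLC, against 18 and 20.4 TPM in WT PGCLC and 7.13 and 11 TPM in WT EpiLC. It fell by 1.21 in TKO, a call lost without the second EpiLC library (-0.54) and with limma-voom, which also lost the call of the difference from WT. Nanos3, an RNA-binding protein that germ cells need to survive, was at 3.18 and 7.52 TPM in TKO PGCLC and at 0.484 and 1.28 TPM in EpiLC, and its rise of 1.70 ± 0.46 was not called without the second PGCLC library (1.19). Tdrd5, a tudor protein of the germline, was at 1.34 and 3.48 TPM in TKO PGCLC and at 3.61 and 4.83 TPM in EpiLC, against 34.7 and 40.2 TPM in WT PGCLC and 13.3 and 12.4 TPM in WT EpiLC. Tdrd12 and Mael, of the piRNA pathway, had log2 differences of -4.91 and -4.84 in TKO and of -4.32 and -4.37 in WT. Alpl, the alkaline phosphatase used to stain germ cells and ESC, was at 357 and 375 TPM in TKO PGCLC and at 27.3 and 31.2 TPM in EpiLC, and Ifitm1 (fragilis family, whose members share similar sequence) at 622 and 709 TPM in PGCLC and 30.1 and 38.2 TPM in EpiLC. Both rose further than in WT, by 1.37 and 1.51. Kit, the receptor for stem cell factor, was at 14.3 and 13.3 TPM in TKO PGCLC and at 8.23 and 7.91 TPM in EpiLC, a difference of 0.71 that was not called.

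Primitive streak genes rose strongly in both lines. Of 20 tested, 15 rose and 1 fell in TKO (median 4.47), against 16 that rose in WT (median 4.99). T, which codes for Brachyury, was at 520 and 445 TPM in TKO PGCLC and at 1.08 and 1.14 TPM in EpiLC, a rise of 7.84 ± 0.26, against 1160 and 1280 TPM in WT PGCLC and 0.57 and 0.352 TPM in WT EpiLC. The difference of -1.87 ± 0.37 lost its call with limma-voom. Evx1, a homeobox gene of the posterior streak, was at 221 and 225 TPM in TKO PGCLC and at 0 in both EpiLC libraries, which is at least 2880-fold higher. Msgn1 and Mesp1, basic helix-loop-helix factors of nascent mesoderm, rose by 7.67 and 7.14, and Mixl1 by 6.08. For these 4 genes the TKO and WT transitions were not called different.

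Eomes was not called in TKO. This T-box factor, which specifies definitive endoderm and anterior mesoderm, was at 3.75 and 4.68 TPM in TKO PGCLC and at 3.35 and 3.51 TPM in EpiLC, a log2 difference of 0.23 ± 0.24 (limma BH-adjusted p 0.424). In WT PGCLC it was at 43.7 and 61.7 TPM, against 2.82 and 2.39 TPM in EpiLC. The TKO groups lay close together and the WT groups far apart, and the difference of -3.65 ± 0.35 was kept in every alternative. Wnt8a, a ligand of the streak, was at 14.8 and 14.7 TPM in TKO PGCLC and at 1.22 and 1.23 TPM in EpiLC, against 56.8 and 62.7 TPM in WT PGCLC and 0 and 1.42 TPM in WT EpiLC. Rspo3, which strengthens WNT signals, was at 195 and 190 TPM in TKO PGCLC and at 0.0368 and 0 TPM in EpiLC, against 66.6 and 56.2 TPM in WT PGCLC, a difference that lost its call with limma-voom and with the smaller pseudocount. In all, 2 of the 20 streak genes had a positive and 4 a negative difference, or 0 and 2 with limma-voom. Over all 14416 tested genes 4.24% were positive and 5.17% negative, or 507 and 968 genes with limma-voom.

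Targets of WNT and BMP signals rose alongside. In TKO 10 of 14 WNT targets rose (median 2.63), against 12 in WT, and 13 of 15 BMP targets rose (median 3.63), as did 13 in WT. The difference of the transitions was called positive for 5 BMP targets and negative for 2, or for 2 and 1 with limma-voom. For WNT targets it was called for 2 and 2, or for 1 and 0 with limma-voom. Over all tested genes 4.24% were positive and 5.17% negative. Axin2, a negative regulator that WNT induces, was at 153 and 134 TPM in TKO PGCLC and at 3.79 and 2.62 TPM in EpiLC, and the transitions differed by 0.21 ± 0.25 (limma BH-adjusted p 0.607). Id1, an inhibitor of differentiation that BMP induces, was at 512 and 612 TPM in TKO PGCLC and at 5.86 and 3.99 TPM in EpiLC, against 810 and 905 TPM in WT PGCLC and 1.87 and 1.16 TPM in WT EpiLC, a difference of the transitions of -1.84 ± 0.43. Id2 rose by 4.51 in TKO and by 4.45 in WT. Msx1 and Msx2, homeobox targets of BMP, were at 474 and 433 TPM and at 224 and 232 TPM in TKO PGCLC, and below 1.3 TPM in EpiLC. Bambi, a decoy receptor, was at 73.6 and 78 TPM in TKO PGCLC and at 6.5 and 6.65 TPM in EpiLC, against 13.7 and 13.9 TPM in WT PGCLC and 4.16 and 5.41 TPM in WT EpiLC.

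The Nodal pathway differed. Of 12 members 3 rose and 4 fell in TKO, and 6 had a negative difference from WT, also with limma-voom. Nodal itself, the ligand, was at 22.6 and 26.7 TPM in TKO PGCLC and at 36.3 and 39.3 TPM in EpiLC, against 77.2 and 112 TPM in WT PGCLC and 45.9 and 48.6 TPM in WT EpiLC. The value in TKO was lower in PGCLC and the value in WT higher, and the transitions differed by -1.56 ± 0.19. Lefty1, a secreted inhibitor of Nodal, fell by 3.10 in TKO and fell by 1.16 in WT. Gdf3, a ligand of the same family, fell by 4.19 in TKO and fell by 2.18 in WT. Cfc1, a co-receptor, was at 40.3 and 41.2 TPM in TKO PGCLC and at 0 in both EpiLC libraries, against 7.3 and 3.94 TPM in WT PGCLC.

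The 18 genes of lateral and extraembryonic mesoderm summed to 2020 to 2170 TPM in TKO PGCLC, most of it Hand1. The sums were 210 to 346 TPM in WT PGCLC and 1500 to 1760 TPM in Ovol2KO PGCLC. Of 17 tested 14 rose and 1 fell in TKO (median 3.69), and 10 rose and 1 fell in WT (median 1.93). The difference from WT was called positive for 11 of the 17, and for 4 with limma-voom. In Ovol2KO 13 of the 17 rose and 1 fell, and the difference TKO minus Ovol2KO was called for 0 of them. Hand1, a basic helix-loop-helix factor of extraembryonic and lateral mesoderm, was at 1310 and 1470 TPM in TKO PGCLC and at 0.419 and 0.736 TPM in EpiLC, a rise of 9.79 ± 0.37 (limma BH-adjusted p 1.04e-21). WT PGCLC had 141 and 80.9 TPM, against 0 and 0.19 TPM in WT EpiLC. Foxf1, a forkhead factor of lateral mesoderm, was at 117 and 124 TPM in TKO PGCLC and at 0.328 and 0.96 TPM in EpiLC, against 8.16 and 7.13 TPM in WT PGCLC. The groups did not overlap for either gene, but both differences, 3.16 ± 0.52 and 3.51 ± 0.32, lost their call with limma-voom and with the smaller pseudocount.

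The differences of Bmp4 and Isl1 were kept in every alternative. Bmp4, the ligand itself, was at 207 and 203 TPM in TKO PGCLC and at 1.02 and 0.7 TPM in EpiLC, against 34 and 22.6 TPM in WT PGCLC and 1.17 and 1.08 TPM in WT EpiLC. Isl1, a LIM homeobox factor of lateral mesoderm, was at 51.8 and 46.7 TPM in TKO PGCLC and at 0.035 and 0.553 TPM in EpiLC, against 6.34 and 2.49 TPM in WT PGCLC. Among 15 genes of endothelium and blood 8 rose and 2 fell in TKO, against 3 and 4 in WT. With quantile scaling 6 rose and 2 fell in TKO, and with limma-voom 5 rose and 4 fell in WT. Over all tested genes 14.5% rose and 10.1% fell in TKO, against 13.5% and 7.62% in WT. Cxcr4, a chemokine receptor that endoderm also carries, was at 19.6 and 16 TPM in TKO PGCLC and at 1.02 and 0.77 TPM in EpiLC, against 1.86 and 0.694 TPM in WT PGCLC. Fli1, an ETS factor of blood and vessel precursors, was at 4.15 and 3.57 TPM in TKO PGCLC and at 0 in EpiLC, against 0.531 and 0.396 TPM in WT PGCLC. Both of these differences were kept in every alternative. Among the 15 genes, the difference from WT was called positive for 5 and negative for 1, or for 5 and 0 with quantile scaling. Over all tested genes 4.24% were positive and 5.17% negative. Flt1, named after its values were seen, had a called negative difference, -1.04 ± 0.28.

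In bulk RNA fewer cells of a type and less RNA of it per cell cannot be told apart, and markers of other cell types moved with the step. For the counts of these markers, the shares over all tested genes in TKO were 14.5% higher and 10.1% lower. Of 12 trophoblast markers tested 5 were called higher and 2 lower in TKO. The summed TPM of the 15 trophoblast markers in the table was 2020 to 2180 in TKO PGCLC and 19.2 to 24.7 in EpiLC, against 412 to 480 in WT PGCLC and 28.3 to 33.5 in WT EpiLC. Hand1 and Cdx2, which mesoderm also expresses, made up most of it. Plac1, Gata3 and Tfap2c were called higher too, while Elf5, Prl3d1 and Tpbpa were at 0 in TKO PGCLC and EpiLC. The fibroblast list, with 4 of 8 tested genes called higher and 2 lower, summed over its 11 genes in the table to 328 to 336 TPM in TKO PGCLC and to 54.5 to 59.9 TPM in EpiLC. Col1a1, at 236 and 254 TPM, made up most of the PGCLC sum. Dcn was at 0 in TKO PGCLC and at 11.5 and 10.3 TPM in TKO EpiLC. Endoderm markers, with 5 of 10 tested higher and 1 lower, summed over 16 genes to 94.1 to 97.4 TPM in TKO PGCLC and 35.6 to 41.2 TPM in EpiLC. Gata6, Cxcr4, Trf, Gata4 and Sox17 were among the called members, while Afp and Ttr were at 0. The neural list, with 3 of 12 tested higher and 5 lower, summed over 15 genes to 65.3 to 67.9 TPM in TKO PGCLC and 233 to 256 TPM in EpiLC. The part of such cells in the results was not tested.

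Hox and caudal genes set the lines apart. In TKO 32 of 36 Hox genes tested rose (median 2.60), against 11 in WT (median 0.23), and the difference was called positive for 28, or for 19 with limma-voom. The Hox genes lie in 4 clusters and pattern the body axis, with low-numbered genes used early and anteriorly. Hoxb1 and Hoxb2 rose in both lines. Hoxb1 was at 153 and 164 TPM in TKO PGCLC and at 0.085 and 0 TPM in EpiLC, against 71.4 and 64.8 TPM in WT PGCLC, and its difference of 1.15 lost its call with limma-voom and with the smaller pseudocount. Hoxb6 was at 39.2 and 31 TPM in TKO PGCLC and at 0 in both EpiLC libraries, against 0.319 and 0.238 TPM in WT PGCLC. Hoxd9 was at 73.7 and 76.8 TPM in TKO PGCLC and at 0.042 and 0 TPM in EpiLC, against 4.21 and 2.85 TPM in WT PGCLC. The differences of Hoxb6 and Hoxd9, 4.87 ± 0.42 and 4.14 ± 0.43, were kept in every alternative.

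**Figure D3:**
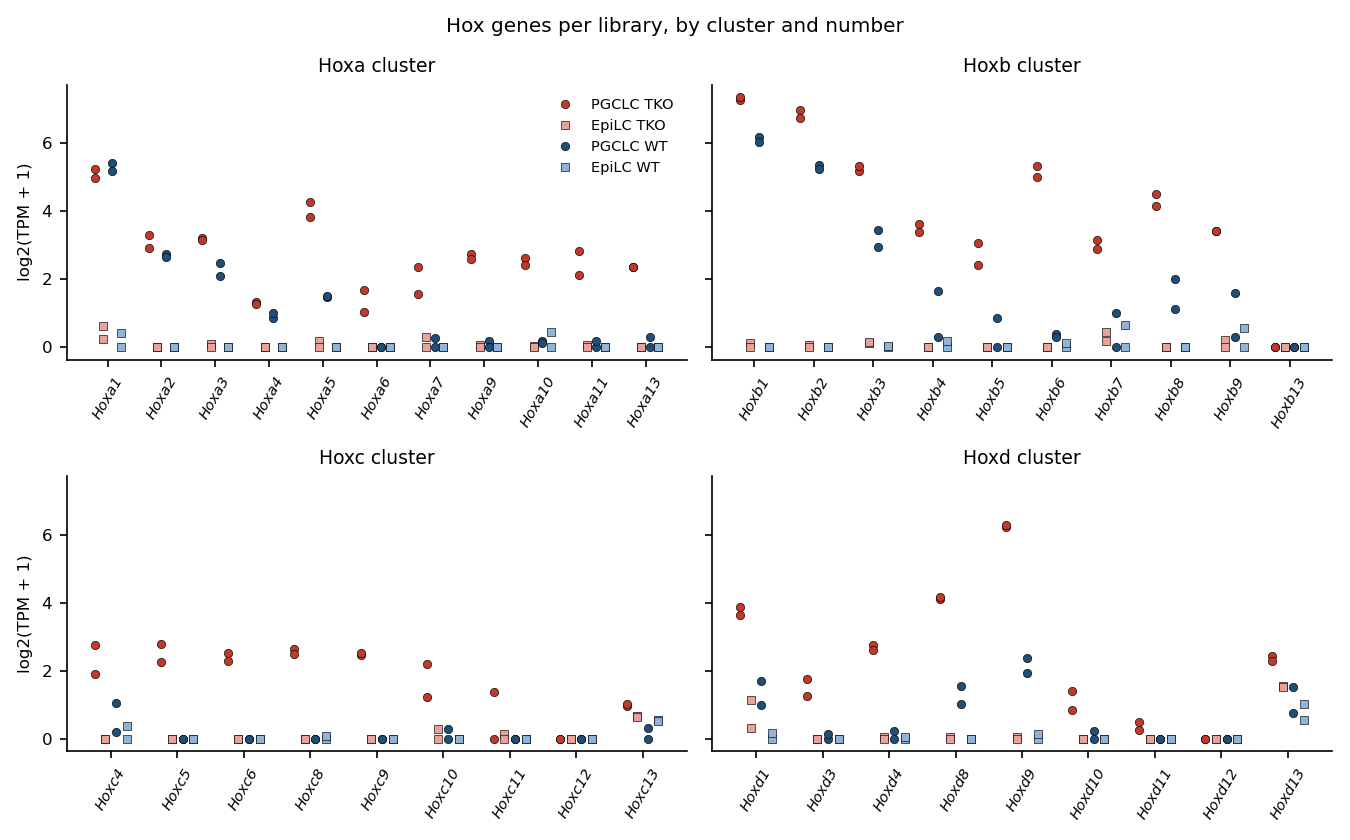
Level of each Hox gene per library as log2(TPM + 1), by cluster, for PGCLC (circles) and EpiLC (squares) of TKO (red) and WT (blue). Hoxb6 and Hoxd9 stood well above WT in TKO PGCLC, while Hoxb1 was high in the PGCLC of both lines.

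The caudal genes code for homeobox factors that act before the Hox genes in the posterior body, and all 3 rose in both lines, though in WT 2 did with quantile scaling and 2 with limma-voom. The rise of Cdx4 in WT, 1.11 on the log2 scale, was the call lost, and it was also lost without the first PGCLC library of WT. Cdx4 was at 132 and 119 TPM in TKO PGCLC and at 0.72 and 0.876 TPM in EpiLC, against 3.17 and 1.58 TPM in WT PGCLC and 0.365 and 0.678 TPM in WT EpiLC. Its difference of 5.02 ± 0.39 was kept in every alternative. Cdx2 was at 560 and 520 TPM in TKO PGCLC and at 0.535 and 0 TPM in EpiLC, against 193 and 170 TPM in WT PGCLC, and its difference of 1.41 lost its call with limma-voom, with the smaller pseudocount and without the first PGCLC or second EpiLC library of TKO or the second PGCLC or second EpiLC library of WT. Cdx1 was at 104 and 98.5 TPM in TKO PGCLC and at 0.404 and 0 TPM in EpiLC, against 201 and 219 TPM in WT PGCLC, and its difference of -0.78 was not called.

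Epithelial genes fell in TKO, among them those of adherens and tight junctions. Of 38 tested 21 fell and 6 rose in TKO (median -1.41), whereas 7 fell and 9 rose in WT (median -0.16). The difference was called negative for 19 (median -1.16), as it was with limma-voom. Cdh1, which codes for E-cadherin, was at 24 and 17.2 TPM in TKO PGCLC and at 336 and 350 TPM in EpiLC, and fell by 4.01 ± 0.09 (limma BH-adjusted p 3.94e-28). WT PGCLC had 312 and 320 TPM, against 461 and 451 TPM in WT EpiLC. Epcam, a cell adhesion molecule of epithelia, was at 23.7 and 16.8 TPM in TKO PGCLC and at 304 and 307 TPM in EpiLC, against 195 and 224 TPM in WT PGCLC and 354 and 343 TPM in WT EpiLC. TKO PGCLC lay far below the other 3 groups for both genes.

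The same held for regulators and tight junction genes. Esrp1, a splicing factor that keeps epithelial isoforms, was at 0.195 and 1.2 TPM in TKO PGCLC and at 30.3 and 31.8 TPM in EpiLC, against 54.9 and 49.3 TPM in WT PGCLC and 86.8 and 81.8 TPM in WT EpiLC. Grhl2, a grainyhead factor that drives epithelial genes, was at 1.57 and 0.555 TPM in TKO PGCLC and at 19.2 and 17.6 TPM in EpiLC, against 11.1 and 12 TPM in WT PGCLC and 32.6 and 29.9 TPM in WT EpiLC. Cldn6, a claudin of early epithelia, was at 1.03 and 1.58 TPM in TKO PGCLC and at 45.5 and 47.3 TPM in EpiLC, against 157 and 206 TPM in WT PGCLC and 258 and 236 TPM in WT EpiLC. Cldn7 was at 1.6 and 0.378 TPM in TKO PGCLC and at 12.4 and 12.5 TPM in EpiLC, against 138 and 167 TPM in WT PGCLC and 145 and 133 TPM in WT EpiLC. Both claudins lay lower in TKO than in WT as EpiLC and lower still as PGCLC.

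Other epithelial genes rose in TKO. Krt8, a keratin of simple epithelia, was at 471 and 510 TPM in TKO PGCLC and at 13.5 and 11.1 TPM in EpiLC, against 580 and 530 TPM in WT PGCLC and 24.5 and 22.4 TPM in WT EpiLC. Dsp, which codes for the desmosome protein desmoplakin, was at 65.7 and 66.9 TPM in TKO PGCLC and at 0.451 and 1.07 TPM in EpiLC, and Krt19 and Perp rose by 4.49 and 2.99. For Krt8 and Dsp the transitions of the lines were not called different, while Krt19 and Perp rose less than in WT. The difference of Krt19, -1.63, lost its call with limma-voom and without the first EpiLC library of WT. That of Perp, -1.52, was kept in every alternative. The Sprr2 genes, small proline-rich proteins of stratified epithelia, were among the largest rises of all genes, with Sprr2a3 at 822 and 1060 TPM in TKO PGCLC and at 0 in EpiLC, against 231 and 185 TPM in WT PGCLC. Members of that family are near-identical copies, and 2 of them had identical values, so their reads cannot be assigned to one gene with certainty.

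**Figure D4:**
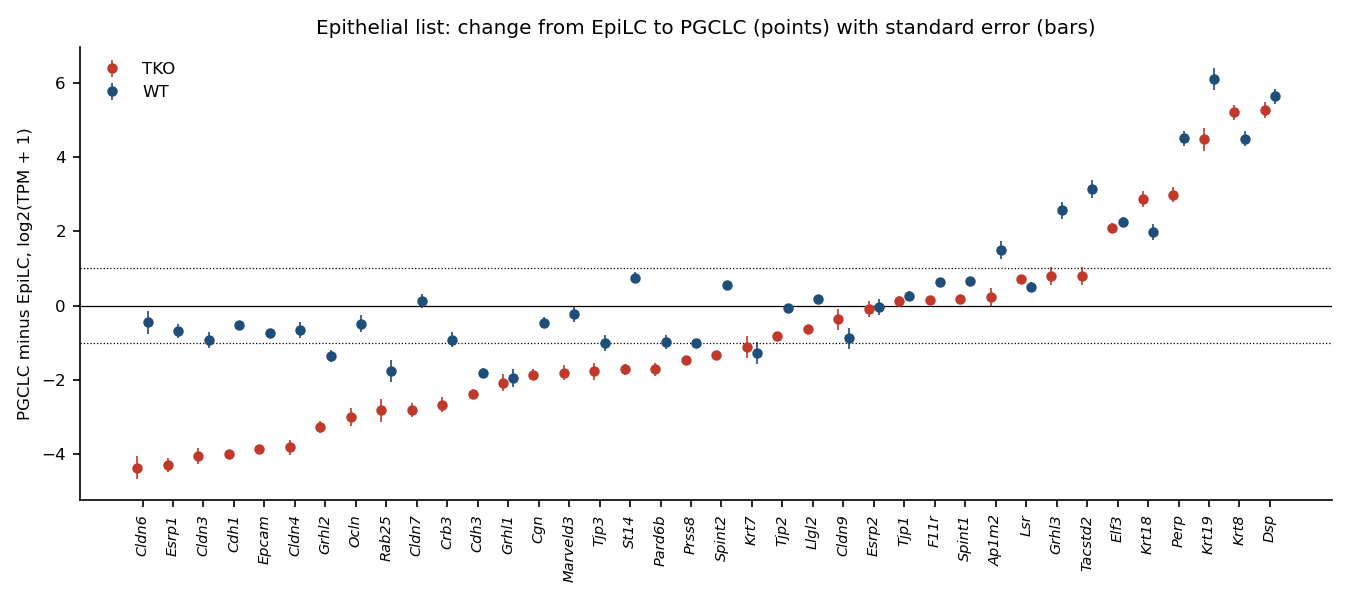
Log2 difference on log2(TPM + 1) between PGCLC and EpiLC for the 38 epithelial genes, in TKO (red, left point of each pair) and WT (blue, right point), with standard error bars and dotted lines at the size needed for a call. Cldn6, Esrp1, Cdh1 and Epcam stand at the left, with log2 differences of -4.37 to -3.87 in TKO and between 0 and -1 in WT, while Krt8 and Krt19 at the right rose in both.

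Promoter windows are shown for epithelial genes that fell in TKO and differed from WT, because repressors of epithelial genes of the SNAI and ZEB families are known to bind the E-box CACCTG, whose reverse complement is CAGGTG. There were 14 such genes, and RefSeq windows of 250 bases before the start (GRCm38.p6) were matched for 9 of them, with 12 windows. The E-box, searched on both strands, was present in a window of 7 of the 9 genes, against 19.4% of 27025 genes with a window. The sequence CCGTTA, the core known for OVOL1, was searched on both strands in the same way and was found in Crb3 alone among the 9, against 2.52% of all genes. A match of letters is a description and shows no binding. The 4 windows printed, with E-boxes in capitals, were chosen after the matches were seen. They run 5′ to 3′ in the direction of the gene and lie at chr17:87635729-87635978 (plus strand) for Epcam, chr17:23679115-23679364 (plus) for Cldn6, chr11:69965171-69965420 (plus) for Cldn7 and chr5:134946935-134947184 (minus) for Cldn4.
Epcam: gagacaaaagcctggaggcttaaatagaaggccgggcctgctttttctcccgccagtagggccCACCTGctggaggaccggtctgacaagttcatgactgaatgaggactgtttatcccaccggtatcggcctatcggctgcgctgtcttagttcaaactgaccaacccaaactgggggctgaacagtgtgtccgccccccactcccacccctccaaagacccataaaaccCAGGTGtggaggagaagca
Cldn6: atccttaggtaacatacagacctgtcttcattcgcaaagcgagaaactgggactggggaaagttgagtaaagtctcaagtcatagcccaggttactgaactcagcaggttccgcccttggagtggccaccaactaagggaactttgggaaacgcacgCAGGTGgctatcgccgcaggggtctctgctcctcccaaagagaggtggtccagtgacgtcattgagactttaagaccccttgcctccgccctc
Cldn7: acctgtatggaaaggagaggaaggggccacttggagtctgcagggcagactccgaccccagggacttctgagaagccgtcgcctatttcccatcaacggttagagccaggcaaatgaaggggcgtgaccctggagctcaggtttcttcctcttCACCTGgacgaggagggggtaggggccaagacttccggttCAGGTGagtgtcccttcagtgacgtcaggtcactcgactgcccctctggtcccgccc
Cldn4: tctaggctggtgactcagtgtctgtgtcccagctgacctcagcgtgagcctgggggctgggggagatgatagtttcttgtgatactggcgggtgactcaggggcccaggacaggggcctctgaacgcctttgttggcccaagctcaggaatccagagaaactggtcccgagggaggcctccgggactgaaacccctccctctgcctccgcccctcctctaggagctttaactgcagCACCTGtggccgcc

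Mesenchymal genes rose in both lines. Of 23 genes of the epithelial to mesenchymal transition 19 rose in TKO (median 2.78) and 17 in WT (median 1.56). The difference was called positive for 6, or with limma-voom for 5 and negative for 3. Cdh2, which codes for N-cadherin, was at 219 and 216 TPM in TKO PGCLC and at 16.5 and 15.3 TPM in EpiLC, against 89.3 and 66.7 TPM in WT PGCLC and 4.14 and 4.63 TPM in WT EpiLC. Levels were higher in TKO in both states, and the rises of 3.69 and 3.86 were not called different (-0.17 ± 0.29). Vim, the intermediate filament vimentin, was at 1650 and 1590 TPM in TKO PGCLC and at 238 and 232 TPM in EpiLC, against 570 and 452 TPM in WT PGCLC and 44.2 and 36.8 TPM in WT EpiLC. Here too the EpiLC of TKO already lay above those of WT.

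The repressors of Cdh1 behaved unequally. Zeb1 was at 12.7 and 11.7 TPM in TKO PGCLC and at 12.6 and 13.4 TPM in EpiLC, a log2 difference of -0.08 ± 0.20 (limma BH-adjusted p 0.726), against 1.02 and 0.379 TPM in WT PGCLC and 1.81 and 1.97 TPM in WT EpiLC. Snai1 was at 124 and 111 TPM in TKO PGCLC and at 2.95 and 3.23 TPM in EpiLC, against 62.9 and 46.8 TPM in WT PGCLC and 3.31 and 3.56 TPM in WT EpiLC. The call of its difference, 1.22 ± 0.44, was lost with the smaller pseudocount, with no filter on low values, with no trend and no robust shrinkage, and without any one of the 8 libraries except the first PGCLC library of WT. Zeb2 was at 10.4 and 11.2 TPM in TKO PGCLC and at 0.849 and 1.24 TPM in EpiLC, against 3.6 and 3.7 TPM in WT PGCLC and 0 and 0.128 TPM in WT EpiLC. Its difference of 0.40 was not called and turned negative with limma-voom (-1.89), where it was called. Twist2 was at 24.2 and 28 TPM in TKO PGCLC and at 0.606 and 1.42 TPM in EpiLC, against 1.28 and 1.2 TPM in WT PGCLC, a difference that lost its call with limma-voom and the smaller pseudocount.

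Fn1, Cdh11 and Tgfb2 kept their difference from WT in every alternative. Fn1, which codes for fibronectin, was at 1010 and 1030 TPM in TKO PGCLC and at 58.7 and 72.2 TPM in EpiLC, against 432 and 366 TPM in WT PGCLC and 79.6 and 87.4 TPM in WT EpiLC. Cdh11, a mesenchymal cadherin, was at 42.4 and 41.3 TPM in TKO PGCLC and at 1.47 and 1.55 TPM in EpiLC, against 10.9 and 7.91 TPM in WT PGCLC. Tgfb2, a ligand that promotes the transition, was at 13.3 and 12.2 TPM in TKO PGCLC and at 0.0187 and 0.197 TPM in EpiLC, against 1.16 and 1.46 TPM in WT PGCLC. Tgfb1 rose by 6.05 in TKO and by 5.09 in WT, and that difference was not called. Among 15 collagen and laminin genes 9 rose and 1 fell in TKO, against 6 and 1 in WT. Col1a1, a fibrillar collagen chain, was at 236 and 254 TPM in TKO PGCLC and at 0.864 and 1.59 TPM in EpiLC, against 12 and 8.3 TPM in WT PGCLC, with a difference that lost its call with limma-voom. Tpm1, a tropomyosin of contractile cells, was at 1040 and 1030 TPM in TKO PGCLC and at 167 and 155 TPM in EpiLC, against 230 and 200 TPM in WT PGCLC and 142 and 134 TPM in WT EpiLC.

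**Figure D5:**
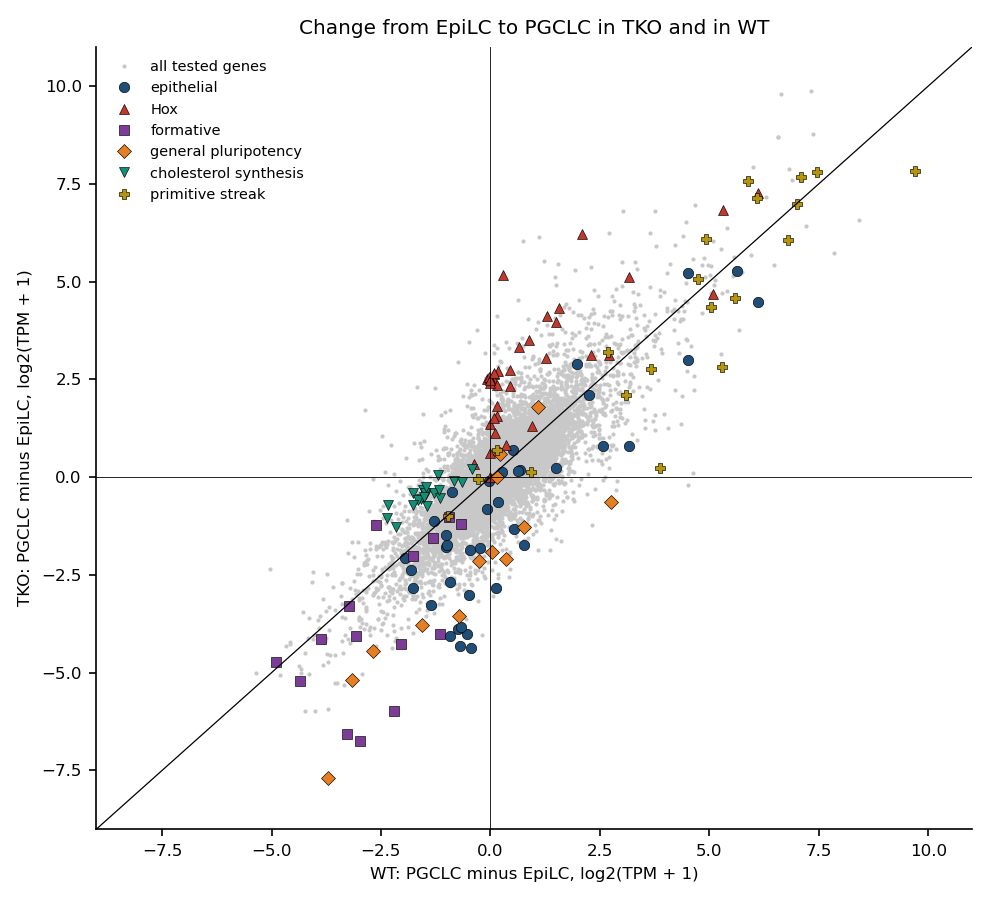
Log2 difference on log2(TPM + 1) between PGCLC and EpiLC in TKO (vertical) against WT (horizontal) for the 14416 tested genes (grey) and 6 gene lists, with a line of equality. Hox genes lay mostly above the line, epithelial and general pluripotency genes mostly below it, and cholesterol synthesis genes above it at the lower left.

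The genes of cholesterol synthesis fell less in TKO than in WT. Of 20 tested, 2 were called lower in TKO (median -0.42), against 17 in WT (median -1.48). The difference was called positive for 12 (median 1.03), for 9 with quantile scaling and for 8 with limma-voom. Mvd, a decarboxylase of the mevalonate pathway, was at 107 and 106 TPM in TKO PGCLC and at 180 and 168 TPM in EpiLC, against 46.9 and 41.4 TPM in WT PGCLC and 211 and 242 TPM in WT EpiLC. Fdps, which makes farnesyl diphosphate, was at 369 and 369 TPM in TKO PGCLC and at 801 and 730 TPM in EpiLC, against 156 and 166 TPM in WT PGCLC and 809 and 848 TPM in WT EpiLC. It fell by 1.05 in TKO, and the log2 difference of -0.98 without the first EpiLC library was short of a call. Fdft1, the squalene synthase, differed by 1.35 ± 0.09 between the transitions.

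Imprinted genes rose in both lines. In TKO 17 of 20 rose and 1 fell (median 1.98), against 14 and 1 in WT, and 5 had a positive difference. Mest, a hydrolase-like gene expressed from the paternal copy, was at 584 and 577 TPM in TKO PGCLC and at 173 and 179 TPM in EpiLC, against 20.8 and 20.6 TPM in WT PGCLC and 151 and 161 TPM in WT EpiLC. It rose by 1.72 in TKO and fell by 2.85 in WT, and the difference of 4.57 ± 0.24 was kept in every alternative. Dlk1, a Notch-like ligand, was at 171 and 178 TPM in TKO PGCLC and at 4.03 and 4.08 TPM in EpiLC, against 8.54 and 6.52 TPM in WT PGCLC and 1.88 and 2.19 TPM in WT EpiLC. Phlda2, a growth-restraining gene of the placenta, rose by 4.20 in TKO and by 2.36 in WT. Peg10, derived from a retrotransposon, was at 858 and 801 TPM in TKO PGCLC and at 21.2 and 20.5 TPM in EpiLC, and did not differ in a called way from WT (-0.50 ± 0.30).

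Large differences from WT also came from genes outside the lists. Nt5e, which codes for the ectonucleotidase CD73, was at 2.16 and 1.38 TPM in TKO PGCLC and at 1.7 and 2.73 TPM in EpiLC, against 63.3 and 75.7 TPM in WT PGCLC and 1.63 and 2.62 TPM in WT EpiLC. Apln, a peptide ligand, was at 0.492 and 1.16 TPM in TKO PGCLC and at 0.589 and 0.739 TPM in EpiLC, against 23.6 and 38.6 TPM in WT PGCLC. Neither was called in TKO, and both rose in WT. Car2, a carbonic anhydrase, was at 33.7 and 30.9 TPM in TKO PGCLC and at 78.5 and 75.2 TPM in EpiLC, against 235 and 231 TPM in WT PGCLC and 46.9 and 44.2 TPM in WT EpiLC. In the other direction, Gfra3, a co-receptor of the GDNF family, was at 23.3 and 20.7 TPM in TKO PGCLC and at 0.665 and 0.701 TPM in EpiLC, against 0.211 and 0.158 TPM in WT PGCLC. Crabp1, which binds retinoic acid in the cytoplasm, was at 177 and 191 TPM in TKO PGCLC and at 32.5 and 41.2 TPM in EpiLC, against 8.93 and 5.88 TPM in WT PGCLC and 31.3 and 20.8 TPM in WT EpiLC. Plac1, a placental gene of the trophoblast list, was at 87.6 and 117 TPM in TKO PGCLC and at 1.4 and 0 TPM in EpiLC, against 1.18 and 0.588 TPM in WT PGCLC, and lost its call with limma-voom.

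Of the 611 positive differences, 273 belonged to genes called higher in TKO only, 162 to genes higher in both lines and 73 to genes lower in WT only. Among the 746 negative differences, 247 belonged to genes called lower in TKO only, 190 to genes higher in WT only and 109 to genes lower in both. The lines also differed in Y-linked transcripts. Eif2s3y was at 0.874 and 0.826 TPM in TKO PGCLC and at 3.59 and 3.68 TPM in EpiLC, against 26.4 and 27.5 TPM in WT PGCLC and 39.2 and 37.9 TPM in WT EpiLC. The part of that difference between the lines in the results was not tested.

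The TKO transition shared most of its calls with that of Ovol2KO. Ovol2KO had 3506 genes called (24.3%), of which 2110 rose (14.6%) and 1396 fell (9.68%). Of the genes that rose in TKO, 1648 also rose in Ovol2KO (79.0% of the TKO list and 78.1% of the Ovol2KO list), and of those that fell 1134 also fell (78.2% and 81.2%). The difference TKO minus Ovol2KO was called for 166 genes (1.15%), 91 positive (0.631%) and 75 negative (0.52%). That count was 74 in a fit of only these libraries, 100 without the second EpiLC library of TKO, 108 without the second PGCLC library of Ovol2KO and 102 without its second EpiLC library. Cdh1 was at 24 and 17.2 TPM in TKO PGCLC and at 336 and 350 TPM in EpiLC, against 42.3 and 35.4 TPM in Ovol2KO PGCLC and 370 and 364 TPM in Ovol2KO EpiLC, a difference of -0.80 ± 0.13 that was too small for a call. Hand1 rose by 9.79 in TKO and by 9.68 in Ovol2KO, and Hoxb6 by 5.16 and 4.90. TKO and Ovol2KO also differed in the levels of sex chromosome transcripts, among them Ddx3y, Eif2s3y and Erdr1. Ddx3y was at 2.93 and 3.41 TPM in TKO EpiLC, against 0 and 0.119 TPM in Ovol2KO EpiLC. Eif2s3y was at 0.874 and 0.826 TPM in TKO PGCLC and at 3.59 and 3.68 TPM in EpiLC, against 0 in the 4 Ovol2KO libraries. Erdr1, named after its values were seen, was at 2520 and 2810 TPM in TKO PGCLC and at 2610 and 2490 TPM in EpiLC, against 1.7 and 0 TPM in Ovol2KO PGCLC and 1.18 and 4.26 TPM in Ovol2KO EpiLC. The part of what else separates these lines in the results was not tested.

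Few named genes separated TKO from Ovol2KO in every alternative. Of 32 with a called difference, 9 kept it throughout. Eng, the endothelial TGF-beta co-receptor endoglin, was at 43.1 and 45.1 TPM in TKO PGCLC and at 8.53 and 8.86 TPM in EpiLC, against 18.3 and 20.3 TPM in Ovol2KO PGCLC and 15.8 and 14.8 TPM in Ovol2KO EpiLC. Pecam1 was at 10.2 and 11.5 TPM in TKO PGCLC and at 5.75 and 5.73 TPM in EpiLC, against 3.24 and 2.05 TPM in Ovol2KO PGCLC and 5.92 and 6.46 TPM in Ovol2KO EpiLC. Tal1, a basic helix-loop-helix factor of blood precursors, was at 1.81 and 3.04 TPM in TKO PGCLC and at 1.74 and 0.98 TPM in EpiLC, against 0 in both Ovol2KO PGCLC libraries and 1.5 and 1.55 TPM in Ovol2KO EpiLC. The VEGF receptor gene Flt1, named after its values were seen, went the other way, with a called difference of -1.33 ± 0.28. It was at 3.21 and 3 TPM in TKO PGCLC, against 6.7 and 4.75 TPM in Ovol2KO PGCLC. Of 15 endothelium and blood genes tested, the difference from Ovol2KO was called positive for 2 and negative for 1. Over all tested genes 0.631% were positive and 0.52% negative. Klhl13, a ubiquitin ligase adaptor, was at 31.9 and 28.6 TPM in TKO PGCLC and at 225 and 209 TPM in EpiLC, against 28.1 and 28.3 TPM in Ovol2KO PGCLC and 38.4 and 29.9 TPM in Ovol2KO EpiLC, so that the lines were alike as PGCLC and apart as EpiLC. Mest was at 584 and 577 TPM in TKO PGCLC and at 173 and 179 TPM in EpiLC, against 250 and 269 TPM in Ovol2KO PGCLC and 197 and 185 TPM in Ovol2KO EpiLC.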

How the data were processed

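Messenger RNA was selected by poly(A) and sequenced from directional libraries, per the labels' protocols. The submitters' processing notes name HISAT2, featureCounts, edgeR and the build mm10. Tool versions, annotation and strandedness of counting: not given in the sources used here, so antisense and overlapping genes are uncertain. The authors deposited TPM per gene, per the labels, and such values give each gene's share of a library's mRNA but no amount per cell.

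Sample titles gave the groups. Whole reads were recovered for 100.0% of values above 0 (tolerance 0.01) from the TPM steps, and used for depths and floors. In 0 of 27 pairs of libraries did counts agree within sampling noise (chi-square p at or above 0.05). Genes with at least 1 TPM in at least 2 libraries (14416 of 20036) were fitted as log2(TPM + 1) in limma 3.58.1 (R 4.3.3) with a trend and robust shrinkage, over all 54 libraries (27 residual degrees of freedom). Each transition is PGCLC minus EpiLC, and differences of transitions are contrasts of the same fit. P-values were BH adjusted over all tested genes. The log scale understates the change of low genes. The procedure was tested on simulated data.

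The 31 gene lists hold 471 genes, of which 438 were tested and 7 were not in the table. The members and lists were chosen with earlier results of these data known. Named genes were the 12 largest rises and 12 largest falls in TKO (groups not overlapping) and the 10 largest differences each way, with a mean of at least 10 TPM in a group and no predicted genes. Added were, per list, the 5 called members with the largest change and the 3 with the largest difference, and fixed regulators. Further genes in captions, promoters and markers at 0 were chosen after their values were seen. Alternatives were a pseudocount of 0.1 TPM, no filter, quantile scaling, a fit of only the groups compared, no trend, a replicate block, limma-voom on recovered reads, and leaving out each library. Applying them to the named genes' differences between transitions was chosen after seeing the data. The result of 1 gene the rule selects is not reported here.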

Additional observations from a re-analysis of the deposited data

Results flagged for a closer look

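A difference between 2 lines in the same transition, tested as an interaction with limma, was called for 1357 genes for TKO minus WT and for 166 genes for TKO minus Ovol2KO. The log2 values of the named genes with the largest called differences follow.

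For TKO minus WT the largest positive differences were 5.29 for Plac1, 5.02 for Cdx4, 4.87 for Hoxb6, 4.57 for Mest and 4.31 for Unc5c. They were followed by 4.14 for Hoxd9, 4.08 for Gfra3, 3.98 for Crabp1, 3.96 for Rgs5 and 3.94 for S1pr3. Unc5c, a netrin receptor, was at 54.6 and 47.3 TPM in TKO PGCLC and at 0.0944 and 0.149 TPM in EpiLC, against 1.94 and 1.18 TPM in WT PGCLC, and lost its call with limma-voom, as Plac1 did. Rgs5, a regulator of G protein signalling, was at 16.3 and 17.2 TPM in TKO PGCLC, against 0.233 and 0 TPM in WT PGCLC. The receptor gene S1pr3 was at 23.7 and 27.3 TPM in TKO PGCLC and at 1.71 and 1.14 TPM in EpiLC, against 0.188 and 0.912 TPM in WT PGCLC.

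The largest negative differences for TKO minus WT were -4.72 for Nt5e, -4.51 for Apln, -4.0 for Utf1, -3.92 for Cldn6 and -3.78 for Pim2. Next came -3.77 for Fgf5, -3.65 for Eomes, -3.62 for Esrp1, -3.55 for Car2 and -3.48 for Cdh1. All 10 kept their call in every alternative.

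For TKO minus Ovol2KO the largest positive differences were 2.3 for Mfap2, 2.25 for Rims4, 1.9 for Eng, 1.82 for Gfra3 and 1.82 for Dusp2. They were followed by 1.81 for Pecam1, 1.75 for Ccdc109b, 1.7 for Laptm5, 1.7 for Lefty2 and 1.54 for Cda. Of these, Rims4, Eng, Dusp2 and Pecam1 kept the call in every alternative. Mfap2 lost it without the second PGCLC library of either line.

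Among the largest negative differences for TKO minus Ovol2KO were -2.55 for Klhl13, -2.1 for Mup6, -1.95 for Igf2 and -1.81 for Kcnmb4. Next came -1.71 for Nr0b1, -1.69 for Cdx1, -1.66 for Foxi3, -1.61 for Tmem176a and -1.58 for Fabp3. Klhl13 kept the call in every alternative and the other 8 did not.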

How the results depend on the processing

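Counts of called genes kept within 1.5 times in all alternatives for the transitions of TKO (3382 to 4576) and WT (2901 to 3954) and for TKO minus WT (1241 to 1475). For TKO minus Ovol2KO, 74 genes were called in a fit of only the groups compared, in place of 166. Leaving out each library gave 3549 to 3643 genes for TKO, 2992 to 3201 for WT, 1241 to 1395 for TKO minus WT and 100 to 202 for TKO minus Ovol2KO; a group of 1 was assumed to vary like the others. Of the 213 named genes, 193 were called in TKO and 185 of these kept call and direction in all 11 alternatives. For TKO minus WT the differences of Zeb2 (-1.89), Sp5 (0.02) and Kdr (-0.76) turned with limma-voom; the cause was not tested. With a pseudocount of 0.1 TPM the share of positive differences was 35.5% in place of 45.0%.

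With a replicate block, 3538, 3040, 1352 and 138 genes were called in the transitions of TKO and WT and in the differences from WT and Ovol2KO. Deviations of libraries with the same number correlated at -0.038 between PGCLC and EpiLC of TKO. With 2 libraries a group of unequal depth, this does not show whether libraries with the same number were made together.

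Depth limits scarce genes most, since the shallowest TKO library held 2.94 M reads. Intervals for zeros and floors cover counting error only.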

Other observations

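Further lists moved in part over the TKO transition. Immediate early genes, which respond within minutes to growth signals, had 7 of 15 called higher and 2 lower. Fos was at 307 and 390 TPM in TKO PGCLC and at 7.84 and 3.78 TPM in EpiLC, against 526 and 666 TPM in WT PGCLC and 1.11 and 2.12 TPM in WT EpiLC. Myc, the growth regulator, was at 139 and 124 TPM in TKO PGCLC and at 83.8 and 90.2 TPM in EpiLC, against 33.7 and 22.9 TPM in WT PGCLC and 71 and 75.6 TPM in WT EpiLC, and its difference of 1.95 ± 0.26 between the transitions was kept in every alternative. Among 14 Notch genes 7 rose and 1 fell, with the ligand Jag1 at 26.5 and 23.6 TPM in TKO PGCLC and 4.71 and 4.66 TPM in EpiLC. Smooth muscle contractile genes had 7 of 13 called higher, led by Tagln, which codes for transgelin, at 309 and 291 TPM in TKO PGCLC and 28.2 and 26.1 TPM in EpiLC.

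Over all genes tested, 14.5% were called higher and 10.1% lower in TKO PGCLC. Of 15 FGF-ERK output genes 2 rose and 4 fell, and Dusp6, a phosphatase that ERK induces, was at 208 and 168 TPM in TKO PGCLC and at 246 and 257 TPM in EpiLC, against 379 and 330 TPM in WT PGCLC and 128 and 151 TPM in WT EpiLC. Of 16 p53 targets 4 rose and 2 fell, with the cell cycle inhibitor Cdkn1a at 79.1 and 71.9 TPM in TKO PGCLC and 22.5 and 20.2 TPM in EpiLC. Hypoxia and glycolysis genes had 2 of 21 called higher and 1 lower, both shares below those over all genes. The glucose transporter Slc2a3 was at 511 and 476 TPM in TKO PGCLC and at 175 and 186 TPM in EpiLC, against 513 and 533 TPM in WT PGCLC and 68.5 and 70.1 TPM in WT EpiLC. Of 9 DNA methylation genes 4 fell, Tet1 and Dnmt3l among them. Genes of early cleavage stages had 1 of 6 called higher and 2 lower, at low levels and in families that share sequence, and of 6 sex chromosome genes 1 fell, Eif2s3y.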
